A study of Mus musculus with 8 samples.

Results

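Hid1, Kcnk6, Atat1, Nucb2 and Fcrla are 5 of the 27179 genes counted in mouse bone marrow plasma cells. They were chosen by their values in these libraries: a strong fall in plasma cells lacking Xbp1, with little or opposite change in plasma cells lacking Blimp1, and a known role that is mostly not in the endoplasmic reticulum (ER). Those values made the choice, so the levels and fold changes of the 5 genes in either knockout are a description and carry no test and no p-value. Statements that their groups of libraries did or did not overlap are description too. The share of all genes without such overlap was not counted. All 5 passed the filter on low counts, which kept 15073 genes.

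Plasma cells, the antibody-secreting cells of the B lineage, were sorted from C57BL/6 bone marrow as Blimp1-GFP+ CD138+ cells. Batch 1 held 2 wild-type libraries (WT replicates 1 and 2) and 2 libraries of genotype Blimp1-/- (Blimp1KO), and batch 2 held 2 further wild-type libraries (WT replicates 3 and 4) and 2 of genotype Xbp1-/- (Xbp1KO). Every group, WT included, was sorted on the same Blimp1-GFP reporter. The names of the batch 2 files, WT included, hold CreER (a Cre recombinase fused to the estrogen receptor), and those of batch 1 do not, so that the 2 WT groups may differ in genotype. The age of the mice, the timing of the deletions and the exons removed are not given in the sources used here. The series design calls the replicates biological. The comparisons are Blimp1KO with WT of batch 1 and Xbp1KO with WT of batch 2, and with 2 libraries a group the spread between replicates is poorly known.

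XBP1 is a transcription factor of the unfolded protein response: the ER stress sensor IRE1 splices its mRNA, and the spliced form encodes the activator that raises the folding, translocation and transport machinery of secretory cells. Blimp1, encoded by Prdm1, represses the B cell programme and sustains antibody secretion. The 5 genes are known from other places in the secretory cell. Hid1 encodes a protein of the trans-Golgi network needed for dense-core secretory granules, Nucb2 a calcium-binding nucleobindin of the Golgi and secretory pathway that is also the precursor of the peptide nesfatin-1, Kcnk6 the 2-pore-domain potassium channel TWIK-2, Atat1 the enzyme that acetylates alpha-tubulin, and Fcrla an intracellular relative of the Fc receptors that binds immunoglobulin. Fcrla protein is known to reside in the ER of B cells, so a group name of "non-ER genes" does not hold for it.

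The sequences before the start sites are shown because the 5 genes were low in the same 2 libraries and XBP1 is known to bind short ACGT-containing elements. The RefSeq promoter table (GRCm38.p6) held 3 of the 5 genes, Nucb2, Atat1 and Fcrla. Each window below covers the 250 bases before a start site, read 5′ to 3′ on the gene's strand, and capitals mark matches on either strand to the motifs searched, which are spelled out after the windows. The Nucb2 window lies at chr7:116504119-116504368 (plus strand), the Atat1 window at chr17:35910069-35910318 (minus strand), and the Fcrla window at chr1:170927584-170927833 (minus strand), inside the annotated Fcrla gene.
Nucb2: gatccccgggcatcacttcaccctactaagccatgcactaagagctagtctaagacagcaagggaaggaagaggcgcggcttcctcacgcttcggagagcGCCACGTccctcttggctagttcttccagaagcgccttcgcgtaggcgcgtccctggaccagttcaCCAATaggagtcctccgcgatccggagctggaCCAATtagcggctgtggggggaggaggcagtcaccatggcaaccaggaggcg
Atat1: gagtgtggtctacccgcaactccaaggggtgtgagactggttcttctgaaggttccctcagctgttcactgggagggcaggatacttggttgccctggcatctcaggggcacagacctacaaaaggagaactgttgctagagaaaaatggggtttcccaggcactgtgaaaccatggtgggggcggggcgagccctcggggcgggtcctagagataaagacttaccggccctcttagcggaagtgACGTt
Fcrla: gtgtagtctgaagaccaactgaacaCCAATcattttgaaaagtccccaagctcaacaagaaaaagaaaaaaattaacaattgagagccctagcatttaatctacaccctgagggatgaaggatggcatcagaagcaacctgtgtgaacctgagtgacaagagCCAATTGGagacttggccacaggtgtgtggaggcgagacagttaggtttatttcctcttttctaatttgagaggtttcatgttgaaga
The Nucb2 window held GCCACGT from -150 to -144, counted from the base before the start site as -1, and CCAAT from -84 to -80 and from -52 to -48. GCCACGT, which contains both CCACG and ACGT, occurred on either strand in 2.02% of 32851 windows of the same length, CCACG in 28.3% and CCAAT in 33.9%. The Atat1 window held ACGT alone, from -5 to -2, a match found in 26.9% of windows. The window of the other start site listed for Atat1, chr17:35910076-35910325, held none of the motifs. It nearly coincides with the window shown and ends before this ACGT, so the 2 windows are not separate promoters. The Fcrla window held CCAAT from -225 to -221 and from -88 to -84, the second overlapping the reverse-strand match ATTGG from -85 to -81. TGACGTG, present in 1.65% of windows, and the combined ER stress elements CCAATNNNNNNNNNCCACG and ATTGGNCCACG, present in 0.113% and 0.0304%, had no match in the 3 genes. A match of letters describes the sequence and shows no binding.

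Total counts ranged from 44.0 M (M for 1e6) in Xbp1KO replicate 2 to 145 M in WT replicate 3. Immunoglobulin genes took 64.8% to 75.7% of the counts of a WT library, 55.4% and 58.4% in Blimp1KO, and 30.0% and 25.2% in Xbp1KO. Levels are therefore given as CPM, counts per 1e6 on TMM-scaled library sizes, a scaling that takes most genes as equal between libraries. On unscaled totals the median log2 difference of all genes was 1.24 in Xbp1KO and 0.78 in Blimp1KO, against 0.08 and -0.01 with TMM. In bulk RNA, fewer cells that express a gene and less RNA of it per cell cannot be told apart. Xbp1 itself had 2129 and 2203 CPM in batch 2 WT and 1302 and 1105 CPM in Xbp1KO. Prdm1 had 301 and 306 CPM in batch 1 WT and 243 and 176 CPM in Blimp1KO. These counts cover the whole gene, with any reads from outside the deleted stretch, so neither gene checks the genotype. Sdc1, which encodes CD138, was measured between 309 and 639 CPM in all 8 libraries. In batch 1 the replicate numbers of the count columns and of the deposited log2 FPKM files were exchanged within both groups: over 9193 genes the replicate 1 minus 2 differences of the 2 kinds of value correlated at -0.987 in WT and -0.995 in Blimp1KO, against 0.985 and 0.951 in the groups of batch 2. Group values do not depend on the numbers, and libraries are named here by their count columns.

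Over all genes tested, edgeR's quasi-likelihood test, adjusted by Benjamini-Hochberg, called 1160 genes in Xbp1KO (7.7%), 763 lower (5.06%) and 397 higher (2.63%). In Blimp1KO it called 130 genes (0.862%), 43 lower (0.285%) and 87 higher (0.577%). Nothing is read from these shares about the 5 genes, which were chosen on the same contrasts. The 12 plasma cell markers include Sdc1, Xbp1 and Prdm1, and also Jchain, which was counted here as an immunoglobulin gene. A sum follows its most abundant members, so it does not measure the share of plasma cells. The 12 markers summed to 119960 and 111450 CPM in batch 1 WT and 59343 and 72983 CPM in Blimp1KO. In batch 2 they summed to 68839 and 51100 CPM in WT and 41302 and 33058 CPM in Xbp1KO. In Xbp1KO 3 of the 12 were called lower and none higher, with a median log2 fold change of -0.05. In Blimp1KO none was called, with a median of -0.55 and a highest value of -0.12. Markers of other bone marrow cells differed between libraries. The summed level of 9 erythroid markers was 9.30 CPM in Xbp1KO replicate 1 and 1171 CPM in Xbp1KO replicate 2, and 35.3 to 367 CPM in the WT libraries. The summed level of 12 neutrophil and monocyte markers was 304 and 1620.5 CPM in the same 2 Xbp1KO libraries and 807 to 2158 CPM in WT. The 12 markers of mature B cells summed to 681 to 997 CPM in WT, 1240.3 and 1666 CPM in Blimp1KO and 955 and 883 CPM in Xbp1KO. The 11 T and NK cell markers summed to 20.2 to 56.9 CPM in all libraries, with Cd3e, Cd3d, Cd8a, Nkg7 and Ncr1 at 0 in Xbp1KO replicate 1. Their part in the levels below was not tested, and values without Xbp1KO replicate 2 are given beside the 5 genes and the lists.

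**Figure D1:**
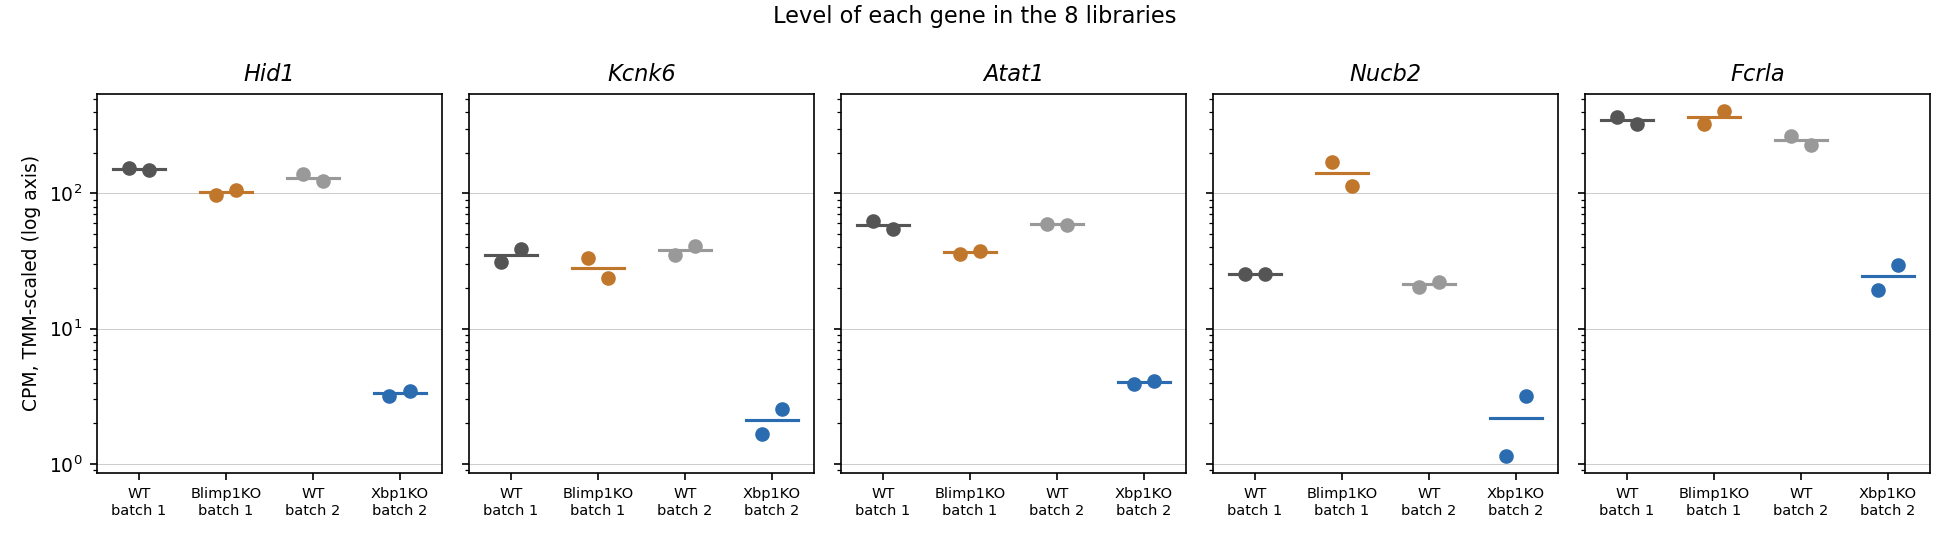
Level of Hid1, Kcnk6, Atat1, Nucb2 and Fcrla in each of the 8 libraries, in TMM-scaled CPM on a log axis. Points are libraries and bars are the mean of the 2 libraries of a group. For every gene both Xbp1KO libraries lie below all other libraries, and Nucb2 alone has both Blimp1KO libraries, at 114.5 and 169.96 CPM, far above WT.

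Hid1 had the deepest fall of the 5 in Xbp1KO. The gene (Entrez 217310, chr11:115347705-115367756, minus strand, GRCm38.p6) had 139 and 123 CPM in batch 2 WT and 3.19 and 3.47 CPM in Xbp1KO. The Xbp1KO mean was 2.54% of WT, a log2 fold change of -5.30 ± 0.19 (SE, n = 2 per group), or 39.3-fold lower, and ranked 24 from the lowest among 15073 genes. The 2 Xbp1KO libraries, with 597 and 322 reads on the gene, differed by 1.09-fold from each other. In batch 1 Hid1 had 154 and 148 CPM in WT and 97.2 and 106 CPM in Blimp1KO, a log2 fold change of -0.57 ± 0.16 in which the groups did not overlap. This smaller difference took the opposite sign, 0.22, on unscaled library totals.

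Kcnk6 (Entrez 52150, chr7:29221928-29232522, minus strand) encodes a potassium channel known from endosomes, lysosomes and the plasma membrane. It had 35.1 and 41.2 CPM in batch 2 WT and 1.67 and 2.57 CPM in Xbp1KO. The mean was 5.56% of WT, a log2 fold change of -4.18 ± 0.30. In batch 1 it had 31.0 and 39.1 CPM in WT and 33.2 and 23.5 CPM in Blimp1KO. The batch 1 groups overlapped, and the log2 fold change of -0.31 ± 0.26 was close to its standard error.

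Atat1 (Entrez 73242, chr17:35897595-35910086, minus strand) was the most even of the 5 between replicates of Xbp1KO. It had 59.4 and 58.5 CPM in batch 2 WT and 3.903 and 4.13 CPM in Xbp1KO, which is 6.81% of WT and a log2 fold change of -3.88 ± 0.15. In batch 1 it had 62.4 and 55.1 CPM in WT and 35.9 and 37.6 CPM in Blimp1KO, a log2 fold change of -0.68 ± 0.13. Both Blimp1KO libraries lay below all 4 WT libraries and above both Xbp1KO libraries. On unscaled totals the Blimp1KO difference became 0.12.

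Nucb2 (Entrez 53322, chr7:116504352-116540588, plus strand) moved in opposite directions in the 2 knockouts. It had 20.5 and 22.2 CPM in batch 2 WT and 1.15 and 3.19 CPM in Xbp1KO, while in batch 1 it had 25.3 and 25.2 CPM in WT and 169.96 and 114.5 CPM in Blimp1KO. The log2 fold changes were -3.31 ± 0.47 in Xbp1KO and 2.49 ± 0.45 in Blimp1KO, so that the Blimp1KO mean was 5.63-fold above WT. All 4 WT libraries lay within 20.5 to 25.3 CPM, and neither knockout overlapped them. The 2 Xbp1KO libraries differed from each other by 2.76-fold, at 5.42% and 14.97% of WT. Over 7477 genes whose average log2 CPM was 3 or more, the absolute log2 difference between the Xbp1KO libraries had a median of 0.18 and a 95th percentile of 0.66, and that of Nucb2 was 1.47. The higher of the 2 was replicate 2, which also had the higher erythroid and myeloid marker sums of the 2. Its myeloid sum of 1620.5 CPM exceeded batch 2 WT, at 807 and 1212.5 CPM, but lay within the range of all WT, 807 to 2158 CPM. The myeloid sum of replicate 1, 304 CPM, lay below that range. Without replicate 2 the log2 fold change of Nucb2 was -4.18, and without replicate 1 it was -2.81. The summed B cell markers given above were also higher in both Blimp1KO libraries than in WT. Blimp1 represses the B cell programme, so added B cells and B cell genes raised within plasma cells cannot be told apart. Of 11 B cell markers tested in Blimp1KO, edgeR called 1 higher, against 0.577% of all genes. An unadjusted edgeR p below 0.05 was found for 8 of the 11, against 13.9% of all genes. DESeq2 called 5 higher and 2 lower, against 6.43% of all genes in either direction. The log2 fold changes of the 11 markers ran from -3.08 to 2.72, with a median of 1.08. The part of these markers in the rise of Nucb2 was not tested.

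Fcrla (Entrez 98752, chr1:170917594-170932216, minus strand) had the highest level of the 5 per length of gene. It had 266 and 229 CPM in batch 2 WT and 19.3 and 29.7 CPM in Xbp1KO, a mean of 9.88% of WT and a log2 fold change of -3.34 ± 0.28. In batch 1 the groups overlapped, with 369.6 and 326 CPM in WT and 327 and 409 CPM in Blimp1KO, a log2 fold change of 0.08 ± 0.26. WT of batch 2 was lower than WT of batch 1 by 0.49 on the log2 scale, and the other 4 genes differed by -0.25 to 0.13 between the WT batches. Each WT difference was small beside the fall in Xbp1KO of the same gene.

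"Nearly lost" thus means 2.54% to 10.2% of WT, and all 5 genes were still read in Xbp1KO, from 216 reads of Nucb2 in replicate 1 to 3605 reads of Fcrla in the same library. Kcnk6 and Fcrla were also higher in Xbp1KO replicate 2 than in replicate 1, by 1.53-fold and 1.54-fold, while Atat1 differed by 1.06-fold. Without replicate 2 the log2 fold changes were -5.33 for Hid1, -4.48 for Kcnk6, -3.89 for Atat1 and -3.66 for Fcrla. Without replicate 1 they were -5.315 for Hid1, -3.97 for Kcnk6, -3.91 for Atat1 and -3.14 for Fcrla.

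Levels can be compared between genes as CPM per kilobase of gene length. In WT of batch 1 Fcrla had 201 ± 17.99 CPM per kilobase (SD, n = 2), Hid1 46.6 ± 1.31, Atat1 23.6 ± 2.09, Nucb2 14.5 ± 0.026 and Kcnk6 8.57 ± 1.39. No library of one gene overlapped a neighbour in this order, and the order was the same in batch 2 WT. In Blimp1KO Nucb2 stood second, at 81.9 ± 22.6 CPM per kilobase, after Fcrla at 213 ± 33.6 and before Hid1 at 31.4 ± 1.99. In Xbp1KO Fcrla still stood first, at 14.2 ± 4.25, and the others lay between 0.518 and 1.61, where the Nucb2 libraries, at 0.665 and 1.84, overlapped those of Hid1 and Atat1. On this scale Fcrla ranked 328 and Kcnk6 3715 among 15073 genes in WT, so the 5 genes were not among the rare transcripts of these cells.

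Among all 15073 genes tested, 182 had an Xbp1KO log2 fold change at or below that of Nucb2, the least lowered of the 5. Of these, 99 averaged 3 or more in log2 CPM, the limit for the plot of both knockouts, and 11 of the 99 were not immunoglobulin genes. The Blimp1KO difference was at or above that of Atat1, the lowest of the 5, in 9 of the 11: the 5 genes and 4 others, named here after their values were seen. The 4 were the predicted gene Gm6568 at -4.29, the ER cochaperone gene Dnajb9 at -3.87, Arhgef10 at -3.65 and the integrin beta 2 gene Itgb2 at -3.41. A fall of at least 2 on the log2 scale in Xbp1KO together with a rise of at least 2 in Blimp1KO was seen in 21 genes, and Nucb2 was the one among them that averaged 3 or more in log2 CPM.

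**Figure D2:**
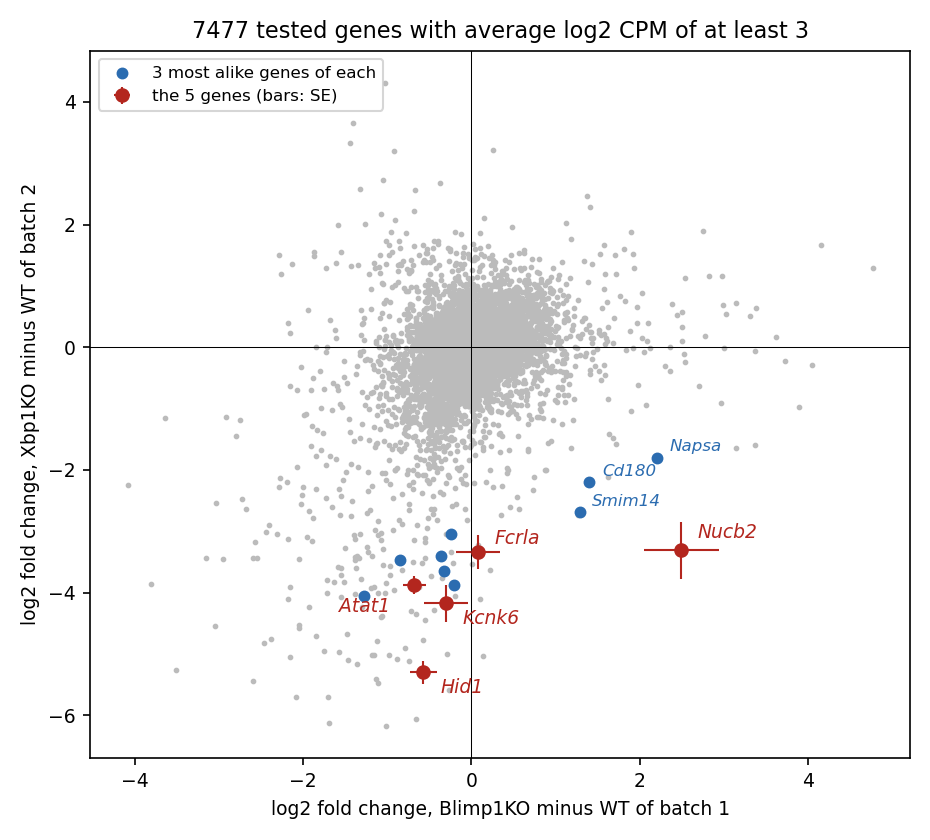
Log2 fold change in Blimp1KO (x axis) and in Xbp1KO (y axis), each against WT of its own batch, for the 7477 genes whose average log2 CPM was 3 or more. Red points are the 5 genes with standard errors and blue points are the genes with the profiles most like theirs. Hid1, Kcnk6, Atat1 and Fcrla lie below zero on the y axis and within 0.68 of zero on the x axis, and Nucb2 stands apart at 2.49 on the x axis.

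Profiles were compared over the 8 libraries by the root mean square difference of log2 CPM after each gene was centred on its own mean, over 6957 genes that are no immunoglobulin, pseudogene or predicted gene. Among the 5, Kcnk6 and Atat1 were the closest pair, at 0.31, and Nucb2 was the farthest from the rest, at 1.03 to 1.43. With the 5 genes themselves left out of the ranking, the most alike gene to Atat1 was Bhlha15, at 0.19, which encodes MIST1, a transcription factor of the secretory cell. Arhgef10 followed at 0.23 and Dnajb9 at 0.27. Dnajb9 also led for Kcnk6 among genes outside the 5, at 0.29, before Itgb2 at 0.33 and Arhgef10 at 0.43. For Fcrla the leading genes were Itgb2 at 0.30, the ER-Golgi thiol protein gene Erp44 at 0.31 and Dnajb9 at 0.32. For Hid1, whose fall was deeper than that of nearly all genes, the nearest outside the 5 were Fkbp11, an ER prolyl isomerase gene, at 0.58, Dnajb9 at 0.60 and Itgb2 at 0.76. These genes share the libraries and were picked for their likeness, so the values describe a pattern and test nothing.

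No gene was close to Nucb2. Its nearest profiles were Smim14 at 0.63, Cd180 at 0.80 and Napsa at 0.81. Cd180 encodes the B cell receptor RP105 and had 57.5 and 44.5 CPM in batch 2 WT, 8.71 and 13.4 CPM in Xbp1KO, 64.7 and 68.6 CPM in batch 1 WT and 185 and 167 CPM in Blimp1KO. Napsa, which encodes the aspartic protease napsin A, had 93.7 and 75.9 CPM in batch 2 WT, 25.1 and 23.5 CPM in Xbp1KO, 142 and 124 CPM in batch 1 WT and 528 and 693 CPM in Blimp1KO. Smim14 had log2 fold changes of -2.69 ± 0.55 in Xbp1KO and 1.29 ± 0.52 in Blimp1KO. In Blimp1KO the differences of Smim14 and Cd180 did not pass edgeR's test (adjusted p = 0.342 and 0.0573), and Napsa, at 2.20 ± 0.22 (edgeR adjusted p = 0.0263), was called but not without any 1 of the 4 WT libraries. The call of Smim14 in Xbp1KO (edgeR adjusted p = 0.0335) held in 9 of 16 alternative settings. The 3 genes were picked for their likeness to Nucb2, so their directions follow from the choice.

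The families and pathways around the 5 genes were followed in 6 lists, tested with edgeR's quasi-likelihood test, with p-values adjusted by Benjamini-Hochberg over all 15073 genes. The counts are to be read beside the shares of all genes, in Xbp1KO 5.06% called lower and 2.63% called higher, and in Blimp1KO 0.285% and 0.577%. Where a list had few or no calls, 2 further measures are given. An unadjusted edgeR p below 0.05 was found for 23.6% of all genes in Xbp1KO and 13.9% in Blimp1KO. DESeq2 called 9.28% lower and 6.36% higher in Xbp1KO, and 6.43% in Blimp1KO, 2.89% lower, of the genes to which it gave an adjusted p. Counts below leave out the 5 genes themselves.

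The list of secretory granule genes, HID1 partners and the transcription factor gene Bhlha15 held 29 other genes, of which 21 were tested. Chga, Chgb, Scg2, Scg3, Scg5, Pcsk1, Pcsk2 and Rab27b had at most 18 reads in any library and were not tested. Of the 21, 4 were called lower and none higher in Xbp1KO. The median log2 fold change of the 21 was -0.27, against 0.08 for all genes. The 4 were Bhlha15 (-3.46 ± 0.16, SE, n = 2 per group, edgeR adjusted p = 0.000342), the granule GTPase gene Rab3d (-2.32 ± 0.16, adjusted p = 0.00174), the synaptotagmin gene Syt11 (-1.75 ± 0.36, adjusted p = 0.0323) and Rab26, a GTPase gene of secretory granules (-3.08 ± 0.68, adjusted p = 0.0406). Rab3d had 74.7 and 65.3 CPM in batch 2 WT and 13.1 and 15.02 CPM in Xbp1KO. Rab26 and Syt11 had under 3 CPM in WT, and without Xbp1KO replicate 2 neither call held, with adjusted p of 0.0908 and 0.150 by the same edgeR test, which left 2 of 21. The Rab26 call also ended without any 1 of the 4 WT libraries, and the Syt11 call without WT replicate 1, 2 or 3 or Xbp1KO replicate 1, so that 2 or 3 of the list were called in these fits. The median rested on single libraries as well: leaving out Xbp1KO replicate 1 gave -0.11 and replicate 2 gave -0.04, leaving out replicate 3 of WT gave -0.02 and replicate 4 gave 0.06, and pooled WT gave -0.05. The 5 tethering-complex subunit genes Vps50 to Vps54 passed no test. Their log2 fold changes were 0.11 for Vps51, 0.12 for Vps52, 0.28 for Vps53, -0.27 for Vps54 and -0.32 for Vps50. Ccdc186, whose product works with HID1, stood at -0.27 ± 0.49 (adjusted p = 0.794).

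Among potassium channels, 11 others were tested and 1 was called lower in Xbp1KO, the 2-pore-domain channel gene Kcnk5, with 15.3 and 13.6 CPM in batch 2 WT and 4.33 and 4.62 CPM in Xbp1KO, a log2 fold change of -1.70 ± 0.20 (edgeR adjusted p = 0.00579). On unscaled totals the difference of Kcnk5 was -0.53 and no longer called. Of the 11 channels, 3 had an unadjusted edgeR p below 0.05 in Xbp1KO, against 23.6% of all genes. DESeq2 called 1 lower, against 9.28%, and none higher. Kcnk1 and Kcnk7, the nearest relatives of Kcnk6, had at most 3 and 9 reads in any library and were not tested. The calcium-activated channel gene Kcnn4 had 199 and 201 CPM in batch 2 WT and 197 and 156 CPM in Xbp1KO, a log2 fold change of -0.18 ± 0.21 (adjusted p = 0.681). The median of the 11 was -0.18 in Xbp1KO and -0.57 in Blimp1KO, and several of them had few reads. Without Xbp1KO replicate 2 the median of the 12 then tested was -1.31, with Kcnk5 still the 1 called, and without WT replicate 4 the median of 14 was -0.01.

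Of the 27 other tubulin genes and tubulin-modifying enzymes tested beside Atat1, none was called lower in Xbp1KO and 1 was called higher, with a median log2 fold change of 0.13. DESeq2 called 4 higher and none lower, and 6 had an unadjusted edgeR p below 0.05, a share close to that of all genes. The median was 0.14 without Xbp1KO replicate 2, and ranged from 0.02 without Xbp1KO replicate 1 to 0.23 without WT replicate 4. The called gene was Hdac6, which encodes the deacetylase that removes the mark ATAT1 sets. It had 9.22 and 7.36 CPM in batch 2 WT and 13.9 and 13.1 CPM in Xbp1KO, a log2 fold change of 0.71 ± 0.16 (edgeR adjusted p = 0.0474). That call held in 4 of 16 alternative settings and ended without any 1 of the WT and Xbp1KO libraries or Blimp1KO replicate 1. Without Xbp1KO replicate 2 the adjusted p was 0.162 by the same test. Sirt2, the other tubulin deacetylase, had a log2 fold change of -0.07 ± 0.15 (adjusted p = 0.823).

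Calcium-binding and calcium-transport genes of the secretory pathway included 27 others, of which 4 were called lower in Xbp1KO and none higher. DESeq2 called 8 lower, against 9.28% of all genes, and none higher. An unadjusted edgeR p below 0.05 was found for 8, against 23.6% of all genes. The median of the 27 was -0.30, and it was -0.12 without Xbp1KO replicate 2 and -0.43 without WT replicate 4. Nucb1, the closest relative of Nucb2, was the lowest of the 27. It had 582 and 529 CPM in batch 2 WT and 94.6 and 83.3 CPM in Xbp1KO, a log2 fold change of -2.64 ± 0.22 (edgeR adjusted p = 0.00226) that was called in all 16 alternative settings. In Blimp1KO the 2 nucleobindin genes stood on opposite sides of WT: Nucb1 had 823 and 812 CPM in batch 1 WT and 552 and 656 CPM in Blimp1KO, a log2 fold change of -0.44 ± 0.21 (adjusted p = 0.415). The other 3 called genes belong to store-operated calcium entry, Stim2 at -1.47 ± 0.17 (edgeR adjusted p = 0.00529), Saraf at -1.49 ± 0.22 (adjusted p = 0.0118) and Stim1 at -0.92 ± 0.17 (adjusted p = 0.0230). The calls of Saraf and Stim1 ended without WT replicate 3, WT replicate 4 or Xbp1KO replicate 2, each of which left 2 of 27 called, and that of Stim1 also without WT replicate 1 or 2 or Xbp1KO replicate 1. On unscaled totals Stim1 was at 0.24, and Stim2 and Saraf were not called, at -0.32 and -0.34. Canx and Calr, the abundant calcium-binding chaperones of the ER, had log2 fold changes of -0.17 ± 0.20 and 0.27 ± 0.24 and passed no test.

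**Figure D3:**
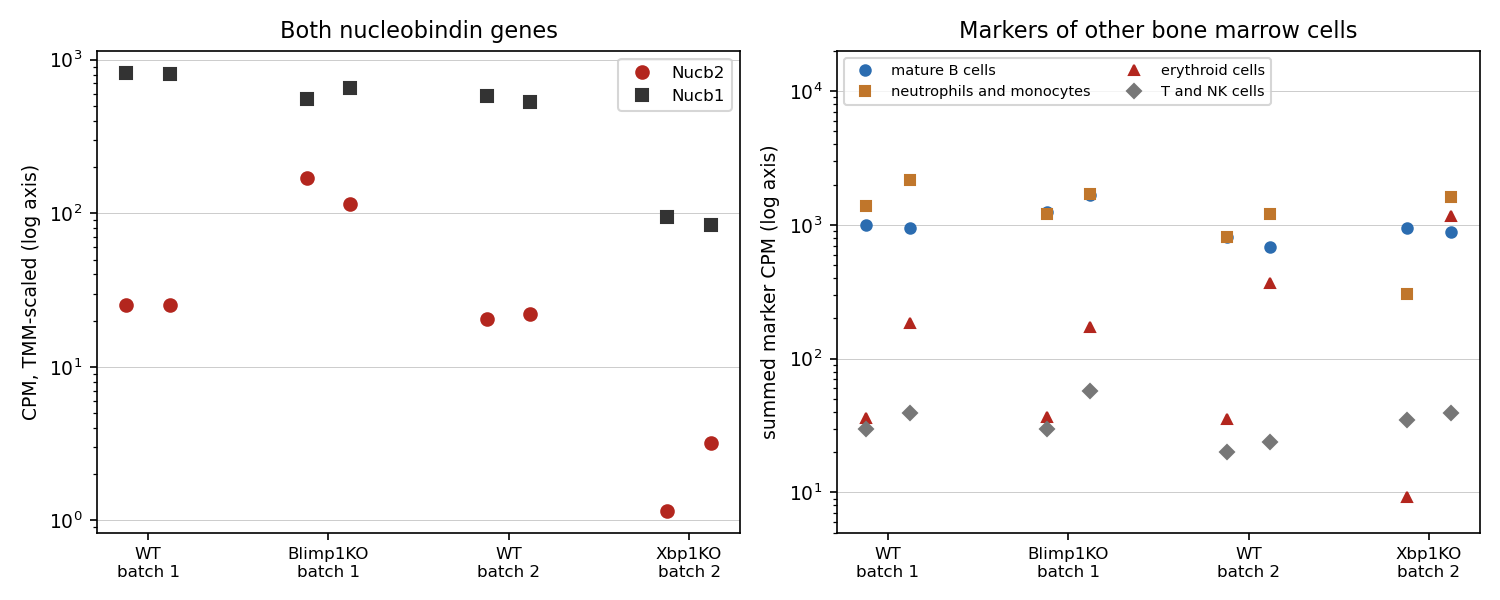
Left, level of Nucb2 and its relative Nucb1 in each library, in TMM-scaled CPM on a log axis. Right, summed level of marker genes of 4 other kinds of bone marrow cell in each library, also in CPM on a log axis. In Blimp1KO, B cell markers from added B cells and from the plasma cells themselves cannot be told apart. Both nucleobindin genes were low in Xbp1KO, Nucb2 alone was high in Blimp1KO, and the erythroid sum ranged from 9.30 to 1171 CPM between the 2 Xbp1KO libraries.

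None of the 15 other Fc receptor and Fc receptor-like genes tested was called in Xbp1KO by edgeR, where 5 had an unadjusted p below 0.05, and DESeq2 called 4 lower. Their median was -0.01, and 0.12 without WT replicate 4. It was -1.36 without Xbp1KO replicate 2, the Xbp1KO library with the higher myeloid sum. Fcrlb, the neighbour and closest relative of Fcrla, lay 3765 bases away and had 0.265 and 0.0865 CPM in batch 2 WT and 0.262 and 0.0863 CPM in Xbp1KO, near the floor of detection. Pigr stood at -1.60 ± 0.41 (edgeR adjusted p = 0.0651) and the inhibitory receptor gene Fcgr2b at -0.70 ± 0.20 (adjusted p = 0.0828). In Blimp1KO the same list had a median of 0.68, and 6 of 15 genes had an unadjusted edgeR p below 0.05, against 13.9% of all genes. DESeq2 called 5 higher and none lower, against 6.43% of all genes in either direction. By edgeR 2 of the 15 genes were called higher, against 0.577% of all genes, and none lower. They were the IgM receptor gene Fcmr at 2.97 ± 0.30 (edgeR adjusted p = 0.0259) and Pigr, the transporter of polymeric immunoglobulin, at 3.37 ± 0.43 (adjusted p = 0.0326). Fcmr had 76.0 and 48.7 CPM in batch 1 WT and 393 and 581 CPM in Blimp1KO. Neither call held with batch 1 fitted alone or when any single WT library was left out, where in the latter case the adjusted p of Fcmr was 0.0559 to 0.216 by the same edgeR test.

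The other 4 family lists had no called gene in Blimp1KO by edgeR. At an unadjusted p below 0.05 there were 5 granule, 2 channel, 2 tubulin and 7 calcium genes, and DESeq2 called 3, 1, none and 3, against the 13.9% and 6.43% of all genes. Their medians in Blimp1KO were -0.22, -0.57, -0.10 and -0.10, against -0.01 for all genes. Without Blimp1KO replicate 1 those of the tubulin and calcium lists were 0.02 and -0.01, and without Blimp1KO replicate 2 that of the tubulin list was -0.16.

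For scale, 30 ER genes widely described as XBP1 targets had a median log2 fold change of -1.23 in Xbp1KO, and 17 of them were called lower and none higher. The lowest was Dnajb9, a cochaperone of BiP, at -3.87 ± 0.18 (edgeR adjusted p = 0.000342), followed in order of p by Dnajc3 (-2.78 ± 0.22, adjusted p = 0.00193), Sec24d, a coat protein of ER exit vesicles (-2.003 ± 0.19, adjusted p = 0.00316), and Dnajc10 (-1.68 ± 0.16, adjusted p = 0.00316). Leaving out WT replicate 3 or Xbp1KO replicate 2 left 6 called genes, WT replicate 4 left 9 and Xbp1KO replicate 1 left 10, and the median stayed between -1.49 and -1.14 in these 4 fits. On unscaled totals, where the median of all genes was 1.24, the ER list had a median of -0.08 with 8 genes called lower and 9 higher, while 12 granule, 18 tubulin and 15 calcium genes were called higher and 3, none and 1 lower, against 60.9% of all genes called higher and 1.99% lower. Apart from Dnajb9, every gene of the ER list had a smaller fall than each of the 5 genes, a difference in size that the choice of the 5 for their strong fall fixes in part. In Blimp1KO the ER list had a median of -0.46, with no gene called by edgeR, 9 at an unadjusted p below 0.05 and 7 called lower by DESeq2.

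**Figure D4:**
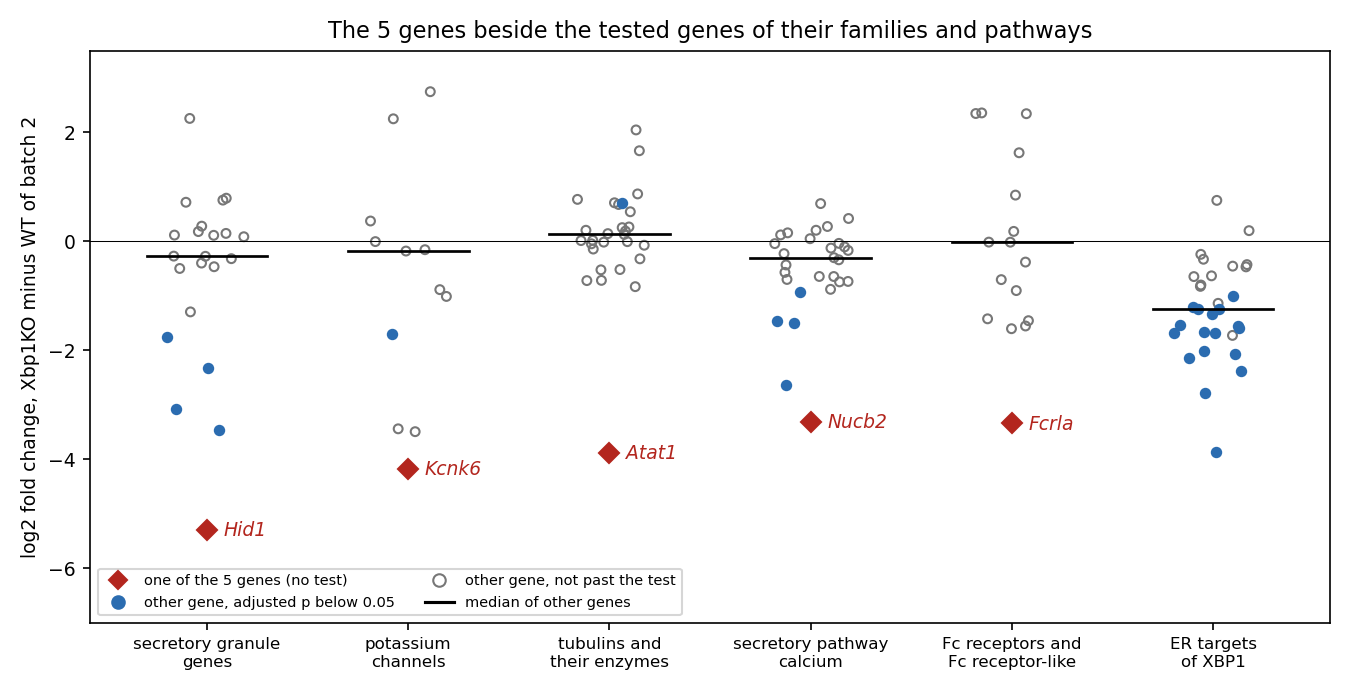
Log2 fold change in Xbp1KO against WT of batch 2 for the tested genes of 6 lists. Diamonds are the 5 genes, filled circles are other genes with an edgeR adjusted p below 0.05, open circles are the remaining genes and bars are medians without the 5 genes. Each of the 5 lies below every other tested gene of its own list, a place that their choice for a strong fall fixes in part.

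The genome neighbours of the 5 genes were read to see whether a whole stretch was low. Yif1b, 5072 bases from Kcnk6, had 22.6 and 21.2 CPM in batch 2 WT and 21.5 and 20.5 CPM in Xbp1KO, a log2 fold change of -0.06 ± 0.26 (edgeR adjusted p = 0.918). Catsperg1, 6339 bases from the other end of Kcnk6, had under 0.5 CPM in every library and stood at -0.95 ± 1.17 (edgeR adjusted p = 0.689). Mrps18b, 294 bases from the start of Atat1, stood at -0.02 ± 0.20 (adjusted p = 0.971), and 2310061I04Rik, 217 bases from its other end, was called higher, at 1.46 ± 0.23 (edgeR adjusted p = 0.0136), a call that ended without WT replicate 3, WT replicate 4 or Xbp1KO replicate 1. The neighbours of Hid1, Otop3 and Cdr2l, had under 0.15 CPM in every library. The neighbours of Nucb2 are the pseudogenes Gm32676 and Gm9197, which were not analysed here. Atat1 overlaps the antisense RNA gene Gm16279, and Fcrla overlaps the pseudogene Gm2962. The strand setting of the counting is not given in the sources used here, so reads of Atat1 and of Gm16279 cannot be told apart.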

How the data were processed

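The 8 RNA samples were prepared with RNeasy Micro and TruSeq RNA kits, per the labels' protocols. The authors deposited 1 table of raw counts by Entrez gene, with gene lengths, per its header. They also deposited a log2 FPKM file per sample for 13945 genes, whose filter and scaling are not given in the sources used here. Subread, featureCounts and limma, and the builds GRCm38 and mm10, are named without versions in the submitters' processing notes. Symbols came from the per-sample files for 13860 genes and from RefSeq (GRCm38.p6) for 11720, and 1599 genes had none.

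Counts were fitted in R 4.3.3 with edgeR 4.0.16: filterByExpr with a minimum count of 10, TMM factors of 0.564 to 2.11, and a quasi-likelihood model of the 4 group means, with 4 residual and 3.06 prior degrees of freedom. Genes were called at a Benjamini-Hochberg adjusted p below 0.05. SE is the absolute log2 fold change divided by the root of F. Alternatives were DESeq2 1.42.0, limma 3.58.1 on the log2 FPKM, other scalings, no low-count filter, own batch only, pooled WT, a replicate block and each library left out. List results under these settings, among them without Xbp1KO replicate 2, were added after the data were seen.

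Named genes are the 5 genes, their nearest relatives and genome neighbours, the opposing enzymes Hdac6 and Sirt2, up to 4 called genes a list by smallest p (or 2 as values), and the 3 most alike profiles of each. The 5 genes and the lists were chosen with earlier results of these data known. Vps50 to Vps54, Ccdc186, Kcnn4, Canx, Calr, Fcmr and the Blimp1KO value of Pigr were named after their values were seen.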

Additional observations from a re-analysis of the deposited data

How the results depend on the processing

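The falls of the 5 genes in Xbp1KO kept their direction in all 16 alternatives. They ranged from -5.61 to -4.13 for Hid1, -4.56 to -3.01 for Kcnk6, -4.16 to -2.72 for Atat1, -4.18 to -2.11 for Nucb2 and -3.66 to -2.15 for Fcrla, each least on unscaled totals. In Blimp1KO Nucb2 stayed between 2.23 and 3.30 in 17 alternatives, while Hid1, Kcnk6 and Atat1 turned to 0.22, 0.49 and 0.12 on unscaled totals and Fcrla ranged from -0.08 to 0.87. The number of genes called in Xbp1KO, 1160 with 397 higher and 763 lower, was 9474 on unscaled totals, with 9174 higher and 300 lower, and 2220 by DESeq2. The number called in Blimp1KO, 130 with 87 higher and 43 lower, was 5895 on unscaled totals, with 5835 higher and 60 lower, 517 without the low-count filter, 856 by DESeq2, 20 in its own batch only and 269 against pooled WT. Stim1 turned to 0.24 in Xbp1KO on unscaled totals, where the median of all genes was 1.24, against 0.08 with TMM. Apart from this shift of all genes, the cause was not tested. Leaving out 1 library gave 225 (WT replicate 3) to 2123 (Blimp1KO replicate 2) calls in Xbp1KO. It gave 0 to 688 (Blimp1KO replicate 1) calls in Blimp1KO, with 0 by edgeR without WT replicate 1 or 2, where 1160 and 1064 genes had an unadjusted p below 0.05; DESeq2 was not run on these subsets. Where a group keeps 1 library, that library is assumed to vary like the others. With the replicate number as a block, 89 genes were called in Blimp1KO, 77 of them among the 130. The labels do not say that the numbers pair libraries, and replicate differences of the 2 groups correlated at 0.218 over genes with 2 pairs. WT and Xbp1KO of batch 2 share no number. Of 22 other named genes called in Xbp1KO, 12 were called in all 16 alternatives. Naming by smallest p or by likeness to the 5 genes fixes this count in part. Counts of 216 and more leave little counting error in the 5 genes.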
